A study of Drosophila melanogaster with 28 samples.

Results

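The protein-coding genes of chromosome 4 of Drosophila melanogaster were examined for the occupancy of RNA polymerase II (Pol II) in embryos with and without a maternal supply of Domino. A gene was taken when the annotation placed it on chromosome 4 as protein-coding, its transcript span was at least 125 nt and more than 10 reads were counted in it over 4 libraries, and it was represented by the transcript with the highest mean count. The annotation listed 80 such genes, 79 were in the table, and all 79 met the minimum, so the filter removed none. They are 79 of 16513 genes tested, of which 11417 are protein-coding genes of the arms 2L, 2R, 3L and 3R, called autosomal genes here.

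Pol II was measured by chromatin immunoprecipitation and sequencing (ChIP-seq) of Rpb3, a core subunit, in whole embryos at stage 5, when the zygotic genome is activated. DomKD embryos (genotype label t216) came from mothers that expressed a short hairpin RNA against domino in the germline under the mat-alpha-Gal4 driver, and Ctrl embryos (genotype label t180) stood for the control of that cross, for which the study's stocks list a TRiP control line. There were 2 libraries a group, made from the same stage with the same antibody. The knockdown removes maternal product, so Pol II at dom in the embryo is no direct check of it: dom had 599.5 and 371 CPM (counts scaled to a common library total, shared here with 16 genes that overlap dom) in DomKD libraries, against 617 and 664 CPM in Ctrl libraries, a log2 fold change of -0.40 with an adjusted p of 0.267 in edgeR's likelihood ratio test. Each library is a pool of embryos and of all their cell types, so that fewer nuclei with Pol II on a gene and less Pol II in each nucleus cannot be told apart.

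Domino is a chromatin remodeller that exchanges H2A for the variant H2A.Z in nucleosomes. Chromosome 4, the small dot chromosome of the fly, is packed with repeats and carries heterochromatin marks along its length, with HP1a and the protein Pof, which binds transcripts and bodies of active genes there. Its genes are nevertheless transcribed, and they include developmental regulators such as ci, pan, ey and toy beside genes that most cells use.

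The 4 libraries differed in ways that touch every value below. Counts over the 1 transcript a gene summed to 10414864 and 9244926 in DomKD replicates 1 and 2, and to 12022600 and 8326380 in Ctrl replicates 1 and 2. The background density, which is the most common read density over genes, was 4.41 and 7.04 CPM per kb in DomKD replicates 1 and 2, against 4.65 and 4.23 CPM per kb in Ctrl replicates 1 and 2. DomKD replicate 2 thus stood apart from the other libraries, and its part in the results was not tested beyond the values given with and without it. Chromosome 4 genes held 0.879% and 0.879% of the reads in genes in DomKD libraries, against 0.906% and 0.897% in Ctrl libraries. The counts of single genes ran from 49 to 12912 and from 86 to 7867 in the DomKD libraries, and from 65 to 11023 and from 40 to 7817 in the Ctrl libraries.

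Read density was first compared with the background of the same library, since reads were counted over whole spans with introns. Over the 4 libraries, 25 of the 79 genes (31.6%) had a mean density of at least 2 times the mean background and are called occupied, against 38.5% to 41.2% of the genes of each autosomal arm and 32.3% of those of the X chromosome. The genes lgs (2.00 times background) and eIF4G1 (2.03 times) lay just inside this limit, and anne (1.97 times), mav (1.94 times) and Ephrin (1.92 times) just outside it. The lowest value, 0.349 times background, was that of Mitf, a basic helix-loop-helix transcription factor gene. The reference holds an assembly gap of 17000 unknown bases inside the Mitf span, and over the remaining bases its density was 1.04 times background. The shares of whole arms take no account of span or GC content. Among genes with GC under 40%, 22 were occupied and 54 were not on chromosome 4, against 232 and 1013 autosomal genes. With a span of at least 5000 nt these counts were 16 and 46, against 920 and 1822. With both properties they were 15 and 46, against 81 and 321.

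The 2 densest genes were ci, the zinc finger transcription factor of the Hedgehog pathway, and RpS3A, a protein of the small ribosomal subunit. At ci the density was 15.9 and 6.14 times the library's own background in DomKD replicates 1 and 2, against 9.18 and 10.2 times in Ctrl replicates 1 and 2. At RpS3A it was 12.5 and 6.33 times in DomKD replicates 1 and 2, against 9.33 and 10.0 times in Ctrl replicates 1 and 2. In both genes DomKD replicate 1 was the highest and DomKD replicate 2 the lowest library. DomKD replicate 2 was the lowest on this scale in 25 of 25 occupied genes and in 69 of all 79, while DomKD replicate 1 was the highest in 5 of the 25. The background of DomKD replicate 2 was the highest (7.04 CPM per kb), and dividing by it lowers that library at genes of every chromosome. The autosomal share on this scale was not counted. On the scale of the fold changes below, DomKD replicate 1 lay above DomKD replicate 2 in 25 of 25 occupied genes, against 92.4% of occupied autosomal genes. The median over the 25 occupied genes of chromosome 4 was 3.26 and 1.75 times background in DomKD libraries, against 3.78 and 4.26 times in Ctrl libraries.

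**Figure D1:**
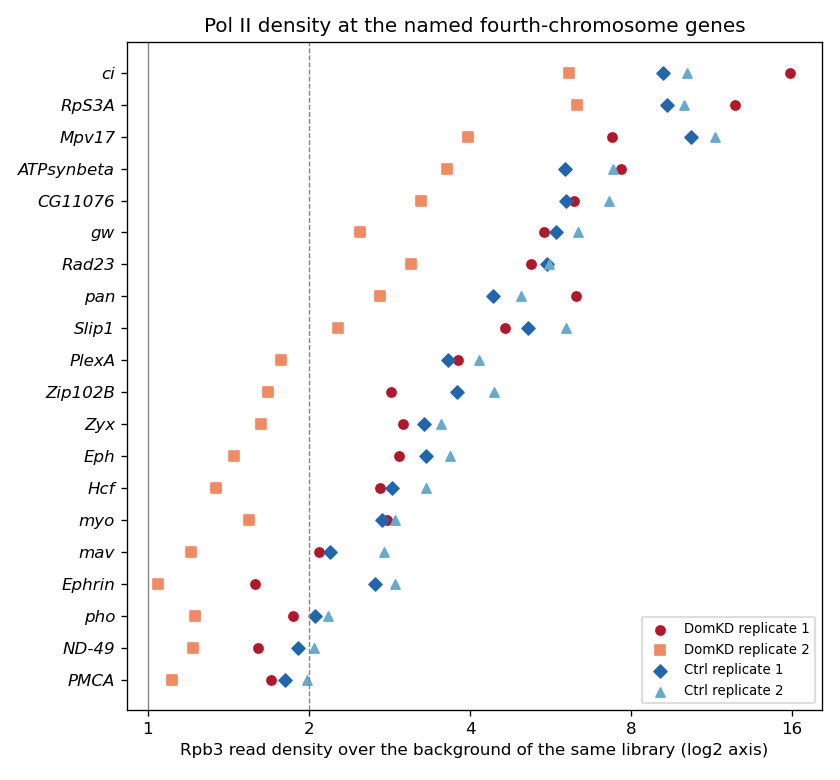
Rpb3 read density of the 20 named chromosome 4 genes, divided by the background density of the same library, on a log2 axis, with 1 point for each of the 4 libraries. The solid line marks background and the dashed line 2 times background; DomKD replicate 2 is the leftmost point of every gene, and DomKD replicate 1 is the rightmost at ci (15.9 times) and RpS3A (12.5 times).

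Fold changes below compare CPM scaled by trimmed mean of M values (TMM) factors and are given as log2 of DomKD over Ctrl. The error given is the standard error of the model (SE), and p-values of edgeR's likelihood ratio test were adjusted over all 16513 genes. At an adjusted p under 0.05, 2 of the 79 genes were lower in DomKD embryos, Ephrin and Mpv17, and 0 were higher. Among all tested genes 12.7% were called lower and 2.46% higher, or 15.1% in either direction, and among autosomal genes 14.1% were called lower and 2.39% higher. At an unadjusted p under 0.05, 8 chromosome 4 genes were lower and 2 higher (12.7% in either direction), against 31.0% of all tested genes, of which 3342 were lower and 1779 higher. The quasi-likelihood test called 2 chromosome 4 genes lower and 0 higher, against 1721 lower and 212 higher over all genes, and DESeq2 called 1 lower and 0 higher, against 1106 lower and 49 higher. The median log2 fold change was -0.03 over the 79 genes, against 0.07 over all tested genes and 0.04 over autosomal genes.

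Ephrin, which encodes the ligand of the Eph receptor, had 65.6 and 56.7 CPM in DomKD libraries, against 101 and 102 CPM in Ctrl libraries. Both DomKD libraries lay far below both Ctrl libraries, which were nearly equal. Its log2 fold change was -0.73 (SE 0.21, adjusted p = 0.00892, edgeR), the lowest of the 79. Ephrin (FBgn0040324, plus strand, chr4:571755-580122 in dm6) overlaps no other annotated gene and its neighbour to the left is ND-49, a subunit of mitochondrial complex I. ND-49 had 25.9 and 25.6 CPM in DomKD libraries, against 28.3 and 27.9 CPM in Ctrl libraries (log2 fold change -0.13, adjusted p = 0.660, edgeR).

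Mpv17, named for the mammalian inner mitochondrial membrane protein, had 25.01 and 17.6 CPM in DomKD libraries, against 32.4 and 33.1 CPM in Ctrl libraries. The groups did not overlap, but the DomKD libraries lay further apart from each other than the Ctrl libraries. The log2 fold change was -0.62 (SE 0.21, adjusted p = 0.0272, edgeR). Mpv17 (FBgn0039930, minus strand, chr4:1028675-1029361 in dm6) is the shortest of the 79 spans and overlaps an antisense RNA gene. ChIP reads do not tell which strand is transcribed, so reads where the pair overlaps cannot be told apart. DESeq2 did not call it (adjusted p = 0.118), while Ephrin was called there as well (adjusted p = 0.0178). Neither gene passed without Ctrl replicate 1 (adjusted p = 0.301 for Ephrin and 0.321 for Mpv17) or without Ctrl replicate 2 (0.387 for Ephrin and 0.431 for Mpv17), in fits where 1 Ctrl library was left.

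Of the 79 genes, 22 had both DomKD libraries below both Ctrl libraries, 17 had both above, and 40 overlapped. The share of all tested genes that did not overlap was 31.8% below and 30.8% above, and that of autosomal genes 34.4% below and 30.4% above. Split by density, 11 of the 25 occupied genes lay below and 0 above, against 64.7% below and 7.09% above among occupied autosomal genes. Of the 54 genes that were not occupied, 11 lay below and 17 above, against 14.5% and 45.8% of autosomal genes of that class. The call in occupied genes was Mpv17 and that in the other class was Ephrin. The class rests on the mean of all 4 libraries, so that a fall lowers it: Ephrin lay at 1.59 and 1.05 times background in DomKD libraries, against 2.65 and 2.89 times in Ctrl libraries. Of the autosomal genes, edgeR called 32.4% of the occupied ones lower and 0.705% higher, and 2.04% of those not occupied lower and 3.5% higher.

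The promoters of 4 of these genes are shown because they carry the sequence patterns searched for, or lack them: Ephrin, the lowest gene; Taf3 and PlexA, 2 occupied genes with full DRE motifs; and ci, the densest gene. Each line is the gene's strand, 5′ to 3′, with 180 bases before the annotated start and 20 from the start on, in dm6. Capitals mark the DNA replication-related element (DRE, TATCGATA), the binding motif of the factor DREF at promoters of many widely used genes, and its core ATCGAT where it stands outside a full motif. The windows are chr4:571575-571774 on the plus strand for Ephrin, and chr4:466809-467008 for Taf3, chr4:1027082-1027281 for PlexA and chr4:57022-57221 for ci on the minus strand.
Ephrin: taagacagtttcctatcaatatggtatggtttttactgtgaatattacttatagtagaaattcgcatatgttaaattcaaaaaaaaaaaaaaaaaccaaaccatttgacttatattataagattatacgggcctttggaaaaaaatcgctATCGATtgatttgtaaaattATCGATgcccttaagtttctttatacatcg
Taf3: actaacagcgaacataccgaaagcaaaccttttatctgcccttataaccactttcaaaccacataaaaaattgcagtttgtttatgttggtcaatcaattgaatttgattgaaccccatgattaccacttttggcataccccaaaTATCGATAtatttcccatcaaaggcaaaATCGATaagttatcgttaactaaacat
PlexA: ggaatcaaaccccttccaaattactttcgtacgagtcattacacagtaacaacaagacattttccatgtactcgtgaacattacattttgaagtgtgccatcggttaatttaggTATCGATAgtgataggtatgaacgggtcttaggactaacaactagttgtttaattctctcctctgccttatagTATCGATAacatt
ci: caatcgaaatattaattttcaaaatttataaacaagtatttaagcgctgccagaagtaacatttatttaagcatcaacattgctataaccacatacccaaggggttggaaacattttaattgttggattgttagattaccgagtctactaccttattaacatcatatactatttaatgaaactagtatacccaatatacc
The Ephrin window holds the core at 30 and 10 bases before the annotated start, and no full DRE. The Taf3 window holds a full DRE 35 bases before the start and a separate core 7 bases before it, and the PlexA window 1 at 66 bases before it and 1 at 8 bases after it. The ci window holds neither.

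Motifs were searched on both strands from 250 bases before to 50 bases after the annotated start. The full DRE was found in 7 of 79 promoters (8.86%), against 8.65% of autosomal promoters. It was found in 6 of the 25 occupied genes (Crk, Hcf, Taf3, Eph, PlexA and PIP4K; 24.0%), against 15.1% of occupied autosomal genes, and the seventh gene was Actbeta. The core ATCGAT, which lies inside every full DRE and was added after the data had been seen, was in 19 of 79 promoters (24.1%), against 22.0%. The Ohler1 core GGTCACAC was in 4 of 79 (5.06%), against 7.66%, the GAGA motif GAGAG in 18 of 79 (22.8%), against 30.2%, and TATAAA in 31 of 79 (39.2%), against 46.3%. The TAGteam motif CAGGTAG, which the activator Zelda binds, was in 0 of 79 windows, against 1.61% of autosomal windows. The median log2 fold change was -0.32 in the occupied genes with a DRE and -0.23 in the occupied genes without, against -0.46 and -0.40 for the same classes of autosomal genes. A match describes the letters of these windows only, and starts used in the embryo can differ from the annotated ones.

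The change of chromosome 4 genes varied with their density. The median log2 fold change was -0.29 over occupied genes, with 20 of 25 below 0 (80%, against 79.9% of occupied autosomal genes), and 0.06 over genes that were not occupied, with 22 of 54 below 0 (40.7%, against 25.7%). The medians of autosomal genes were -0.41 (4540 occupied genes) and 0.26 (6877 genes that were not occupied). The chromosome 4 medians thus lay between those of the autosomal classes, lower changes at dense genes and higher ones at sparse genes being smaller.

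By bins of density the medians were 0.24 in the 17 genes under background, against 0.37 in autosomal genes, and -0.02 in the 37 genes at 1 to 2 times background, against 0.15. At 2 to 4 times background they were -0.31 in 16 genes, against -0.45 in autosomal genes. At 4 to 8 times background they were -0.16 in 7 genes, against -0.44, and at 8 times or more 0.38 in ci and RpS3A, against 0.01. In the bin at 2 to 4 times background, 15 of 16 chromosome 4 genes were below 0 (93.8%), against 85.5% of autosomal genes. In that bin edgeR called 0 of the 16 lower, against 35.8% of the autosomal genes. At an unadjusted p under 0.05, 5 of the 16 were lower, against 53.8% of the autosomal genes.

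**Figure D2:**
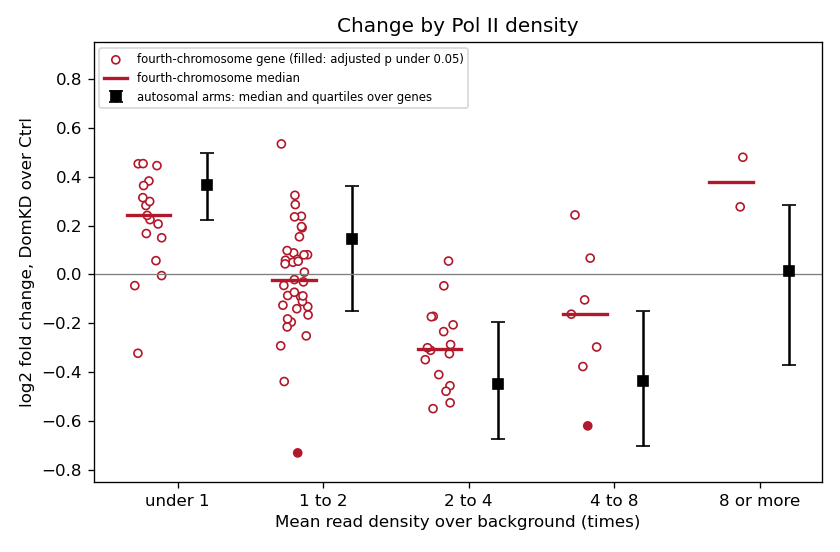
Log2 fold change (DomKD over Ctrl) against mean read density in bins of times background. Circles are the 79 chromosome 4 genes, filled where the adjusted p is under 0.05, red lines their medians, and black squares the medians of autosomal genes with quartiles over genes; at 2 to 4 times background the medians are -0.31 and -0.45.

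Set against the autosomal median of its own bin, the median chromosome 4 gene differed by -0.07 over all 79 genes and by 0.16 over the 25 occupied genes, on the log2 scale. This difference was given as a description, with no test. Over the occupied genes DomKD replicate 1 gave 0.26 and DomKD replicate 2 gave 0.00329, so that the difference rested on DomKD replicate 1. In the bin at 2 to 4 times background, chromosome 4 genes had a median log2 ratio to the Ctrl mean of -0.04 in DomKD replicate 1, against -0.32 in autosomal genes. In DomKD replicate 2 the same medians were -0.58 and -0.57.

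Chromosome 4 genes also differ from autosomal genes in length and base composition. Their median span was 10.1 kb, against 2.12 kb, and their median GC content 34.6%, against 45.6%. Comparisons that take this into account were added after the data had been seen. Within bins of density and span the difference over occupied genes was 0.06, and within bins of density and GC content it was 0.04, where 78 of 79 genes had autosomal genes in their bin. Over all 79 genes these values were -0.12 and 0.03. Occupied chromosome 4 genes with GC under 40% had a median of -0.26, against -0.19 in autosomal genes of that kind, and those with a span of at least 5000 nt had -0.29, against -0.15. Among occupied autosomal genes with a span of at least 5000 nt and GC under 40%, 81 in all, the median was -0.05 and 9.88% were called lower. The 15 occupied chromosome 4 genes of that kind had a median of -0.29, with 0 called lower by edgeR. At an unadjusted p under 0.05 in edgeR, 2 of the 15 were lower, against 12 of the 81 autosomal genes. With either property alone as with both, the order of the medians was the opposite of that over all occupied genes. With both it was so in DomKD replicate 1 (0.00566, against 0.13) as well as in DomKD replicate 2 (-0.60, against -0.34). What sets the difference between chromosome 4 and the autosomes was not tested.

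**Figure D3:**
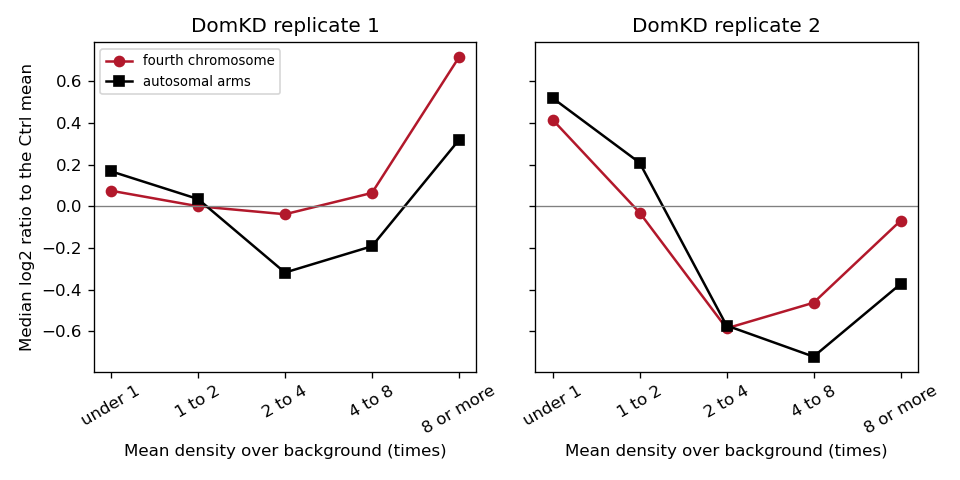
Median log2 ratio to the mean of the Ctrl libraries in each DomKD library, by bins of mean density, for chromosome 4 genes (red circles) and autosomal genes (black squares). At 2 to 4 times background chromosome 4 lies above the autosomal genes in DomKD replicate 1 (-0.04 and -0.32) and beside them in DomKD replicate 2 (-0.58 and -0.57).

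The other chromosomes gave medians of 0.07 on 2L, 0.04 on 2R, 0.04 on 3L, 0.03 on 3R and -0.06 on X over all genes, and of -0.37, -0.39, -0.41, -0.47 and -0.44 over occupied genes in that order. The share called lower was 2.53% on chromosome 4, and ran from 11.8% on 2L to 16.3% on X. The ends of the arms next to the centromeres hold pericentric heterochromatin. They were taken as the last 1 Mb of 2L, the first 5 Mb of 2R, the last 5 Mb of 3L and the first 4 Mb of 3R. These ends had 87 protein-coding genes with a median of 0.05. The genes had a median span of 11.3 kb and a median GC content of 36.9%, and 17.2% were occupied. Of these edgeR called 0 (4 lower and 4 higher at an unadjusted p under 0.05), and the 15 occupied ones had a median of -0.15.

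Transcription and chromatin factors were the largest group, with 18 genes, of which 6 were occupied. No gene of the group passed the test, with 3 lower and 1 higher at an unadjusted p under 0.05 in edgeR, and the median was 0.07. Over all tested genes 20.2% were lower and 10.8% higher at that unadjusted threshold. For ci the CPM values were 731 and 370 in DomKD libraries, against 390 and 399 in Ctrl libraries (log2 fold change 0.48, SE 0.27, adjusted p = 0.212, edgeR). DomKD replicate 1 was the highest library and DomKD replicate 2 the lowest, with the Ctrl libraries between them. The gene pan, the TCF factor of the Wnt pathway, had 1386 and 782 CPM in DomKD libraries, against 898 and 933 CPM in Ctrl libraries (log2 fold change 0.24, adjusted p = 0.528, edgeR). Here too the Ctrl libraries lay between the DomKD libraries, and without DomKD replicate 1 the log2 fold change was -0.23. Both genes lie with RpS3A side by side at the left end of the chromosome, and ci overlaps an antisense RNA gene.

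Hcf, the host cell factor homolog, had 209 and 136 CPM in DomKD libraries, against 204 and 217 CPM in Ctrl libraries (log2 fold change -0.29, adjusted p = 0.395, edgeR). The gene pho, a DNA-binding protein of the Polycomb system, had 84.3 and 72.6 CPM in DomKD libraries, against 85.7 and 83.5 CPM in Ctrl libraries (log2 fold change -0.11, adjusted p = 0.727, edgeR). In both genes the groups overlapped. Another 2 genes of the group were chosen after their values were seen, because they came closest to the threshold. Taf3, a subunit of the general factor TFIID with the DRE shown above, had 88.6 and 62.5 CPM in DomKD libraries, against 108 and 113 CPM in Ctrl libraries (log2 fold change -0.55, adjusted p = 0.0774, edgeR), and it overlaps an antisense RNA gene. The forkhead factor gene fd102C had 53.1 and 54.4 CPM in DomKD libraries, against 36.4 and 37.8 CPM in Ctrl libraries (log2 fold change 0.53, adjusted p = 0.0539, edgeR). It was the highest of the 79 fold changes and its groups did not overlap, at a density of 1.19 times background. In edgeR it passed when genes under a mean of 50 reads were left out (log2 fold change 0.61, adjusted p = 0.0139). It also passed with the crossed pairing of replicates (adjusted p = 0.0336, edgeR), added after seeing the data. In the other fits on all 4 libraries it did not pass, with an adjusted p of up to 0.758 in edgeR with TMM factors on early zygotic genes. With single libraries left out, the log2 fold change of fd102C ran from 0.51 to 0.56.

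Genes for translation and mRNA control numbered 5, of which 4 were occupied, and their median was -0.17 with none at an unadjusted p under 0.05 in edgeR. RpS3A had 122 and 81.2 CPM in DomKD libraries, against 84.3 and 83.5 CPM in Ctrl libraries (log2 fold change 0.28, adjusted p = 0.392, edgeR), and it overlaps a small nucleolar RNA gene. The gene gw, whose product acts with Argonaute in microRNA silencing, had 288 and 171 CPM in DomKD libraries, against 280 and 285 CPM in Ctrl libraries (log2 fold change -0.30, adjusted p = 0.401, edgeR). DomKD replicate 1 lay at the level of the Ctrl libraries or above it in both genes.

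The mitochondrial list held ND-49 and ATPsynbeta, the beta subunit of the ATP synthase, while Fis1, also listed, lies on another chromosome and was left out. ATPsynbeta had 116 and 72.2 CPM in DomKD libraries, against 84.3 and 95.4 CPM in Ctrl libraries (log2 fold change 0.07, adjusted p = 0.857, edgeR), and -0.31 without DomKD replicate 1. It overlaps CG11076, which had 63.2 and 42.9 CPM in DomKD libraries, against 56.3 and 62.5 CPM in Ctrl libraries (log2 fold change -0.16, adjusted p = 0.615, edgeR). Reads of the overlap were added to both genes.

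Of the 6 genes for axon guidance, adhesion and Eph signalling, 1 was called lower, Ephrin, 5 were below 0 and the median was -0.18. Over all tested genes 12.7% were called lower and 45.3% were below 0. Of the 6 genes 2 were occupied, and 79.9% of occupied autosomal genes were below 0. Eph, the receptor of Ephrin, had 171 and 111 CPM in DomKD libraries, against 177 and 182 CPM in Ctrl libraries (log2 fold change -0.35, adjusted p = 0.294, edgeR). PlexA, a semaphorin receptor, had 322 and 197 CPM in DomKD libraries, against 285 and 301 CPM in Ctrl libraries (log2 fold change -0.17, adjusted p = 0.634, edgeR). The groups did not overlap at Eph and overlapped at PlexA.

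None of the 3 TGF-beta ligand genes passed the test, with 1 higher at an unadjusted p under 0.05, and their median was -0.05. The myoglianin gene myo had 74.3 and 53.8 CPM in DomKD libraries, against 66.9 and 65.3 CPM in Ctrl libraries (log2 fold change -0.05, adjusted p = 0.894, edgeR). Maverick, mav, had 29.0 and 21.9 CPM in DomKD libraries, against 28.0 and 32.6 CPM in Ctrl libraries (log2 fold change -0.25, adjusted p = 0.389, edgeR). The activin ligand Actbeta, chosen after its values were seen, had 32.6 and 44.4 CPM in DomKD libraries, against 27.2 and 29.5 CPM in Ctrl libraries (log2 fold change 0.45, adjusted p = 0.128, edgeR). Of the ligands only Actbeta had both DomKD libraries above both Ctrl libraries, and its density was 0.890 times background.

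Synapse and ion handling genes numbered 10, of which 1 was occupied, with a median of 0.03. That gene, Zip102B of the ZIP family of zinc transporters, had 44.3 and 34.3 CPM in DomKD libraries, against 54.4 and 58.8 CPM in Ctrl libraries (log2 fold change -0.53, SE 0.21, adjusted p = 0.0708, edgeR). Its groups did not overlap. In edgeR it passed with library size scaling (adjusted p = 0.0164), with early zygotic TMM factors (0.0137) and among genes that overlap no other gene (0.0376). It also passed with the crossed pairing (0.0336), added after seeing the data. It did not pass with the quasi-likelihood test (0.0888), DESeq2 (0.142), the replicate block (0.120), other count filters or the longest transcript. With single libraries left out, the log2 fold change of Zip102B ran from -0.72 to -0.36. PMCA, the calcium pump of the plasma membrane, had 252 and 216 CPM in DomKD libraries, against 248 and 250 CPM in Ctrl libraries (log2 fold change -0.09, adjusted p = 0.794, edgeR), and its span overlaps that of Rnf11. The others include unc-13, CaMKII and mGluR, genes of neurons that had densities of 1.26, 1.40 and 1.09 times background in these embryos.

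Genes of the cytoskeleton, small GTPases and muscle numbered 8, of which 4 were occupied and 6 were below 0, with a median of -0.20. Below 0 were 45.3% of all tested genes and 79.9% of occupied autosomal genes. Slip1 had 144 and 91.7 CPM in DomKD libraries, against 147 and 159 CPM in Ctrl libraries (log2 fold change -0.38, adjusted p = 0.257, edgeR). Zyx, the focal adhesion protein zyxin, had 113 and 80.4 CPM in DomKD libraries, against 114 and 113 CPM in Ctrl libraries (log2 fold change -0.23, adjusted p = 0.463, edgeR), and its span overlaps that of apolpp. In both genes DomKD replicate 1 came close to the Ctrl libraries. The remaining 27 genes were on no list, had a median of 0.04, and included Mpv17 and Rad23, a ubiquitin receptor. Rad23 had 69.9 and 54.7 CPM in DomKD libraries, against 69.4 and 64.3 CPM in Ctrl libraries (log2 fold change -0.10, adjusted p = 0.746, edgeR).

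**Figure D4:**
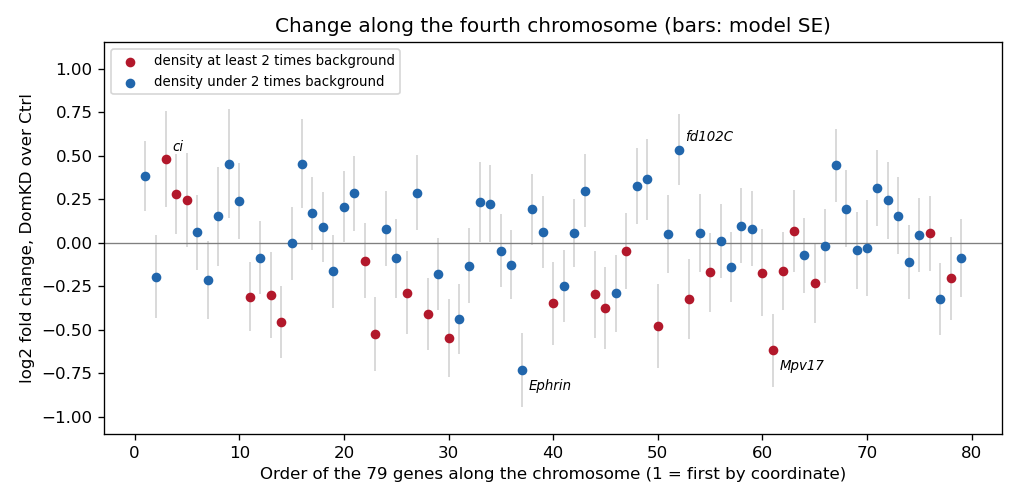
Log2 fold change (DomKD over Ctrl) with model SE for the 79 chromosome 4 genes in order of their coordinates, in red where mean density was at least 2 times background and in blue otherwise. Values above and below 0 occur along the whole chromosome; ci (0.48) lies near the left end, and Ephrin (-0.73) and Mpv17 (-0.62) are the genes called lower.

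Genes elsewhere in the genome whose products are known to act on chromosome 4 or on heterochromatin were also read, as a list of 18. Of these 4 were called lower, 0 were called higher by edgeR (7 lower and 1 higher at an unadjusted p under 0.05), and 16 were below 0, with a median of -0.37. Over all tested genes 12.7% were called lower, 20.2% were lower at an unadjusted p under 0.05 and 45.3% were below 0. Of the 18 genes 12 were occupied. Among occupied autosomal genes 32.4% were called lower and 48.2% were lower at an unadjusted p under 0.05 in edgeR. In that class 79.9% were below 0, with a median of -0.41. Among autosomal genes that were not occupied, these shares were 2.04%, 5.13% and 25.7%, with a median of 0.26. The genes called lower were Su(var)3-7 (log2 fold change -0.95), HP5 (-0.80), HP1c (-0.72) and Hmr (-0.66). Su(var)3-7 and HP1c were occupied, while HP5 (1.35 times background) and Hmr (1.40 times) were not. Of the regulators named here, Su(var)3-7, HP1c, Pof, egg and the HP1a gene each overlap 1 other gene and share reads with it. Pof itself had 108 and 68.7 CPM in DomKD libraries, against 70.6 and 74.2 CPM in Ctrl libraries (log2 fold change 0.29, adjusted p = 0.378, edgeR). The gene of HP1a had 71.2 and 50.4 CPM in DomKD libraries, against 56.7 and 66.7 CPM in Ctrl libraries (log2 fold change -0.02, adjusted p = 0.953, edgeR). The groups overlapped in both. The gene egg, the methyltransferase that marks chromosome 4, had a log2 fold change of -0.14 (adjusted p = 0.622, edgeR).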

How the data were processed

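ChIP-seq of Rpb3 was analysed in 4 libraries of stage 5 embryos (2 DomKD, 2 Ctrl); the other 24 of 28 samples were not analysed here. Per the labels and the study's methods, the authors mapped reads to dm6, removed duplicates and counted reads with featureCounts over each transcript span, introns included, without strand and adding a read to every transcript it overlapped. The deposited values are these raw counts, with no input subtracted. No other per-sample columns were present. The study scaled on its own Zelda targets, which were not used here.

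The table held 34793 transcripts, of which 34516 had an identifier in the Ensembl BDGP6 annotation (34413 with the same span) and 277 were not. Total transcript counts were 36692143 and 31739574 in DomKD libraries, and 40708710 and 28224617 in Ctrl libraries. In R 4.3.3 with edgeR 4.0.16, a likelihood ratio test was run on the counts per gene with TMM factors (0.894 and 1.09 in DomKD, 1.02 and 1.01 in Ctrl), no replicate block, and Benjamini-Hochberg adjustment over all tested genes at 0.05. The common biological coefficient of variation was 0.151. P-values rest on the spread between 2 libraries a group, with the spread of each gene drawn towards a trend fitted over all genes. Ratios of single libraries used CPM plus 0.5.

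Density is CPM without TMM factors per kb of span. A library's background density is the mode of its log2 density (kernel bandwidth 0.1) over genes above 2000 nt. GC content was taken over known bases of the NCBI genome, and promoter sequences come from RefSeq's copy of the same assembly. Of the 79 genes, 31 overlap another gene and share reads with it. GC and span comparisons, the ATCGAT core and the crossed pairing were added after seeing the data.

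The members, lists, tests and alternatives were chosen with earlier results of these data known. Genes were named by rule: the 8 members of highest mean density, up to 8 falls and 8 rises with an adjusted p under 0.05 and groups that do not overlap, the 2 densest of each role list, and Hcf, pho and ci. Others are said to be chosen after their values were seen. Alternatives were library size scaling, TMM on early zygotic genes, the quasi-likelihood test, DESeq2 1.42.0, other filters, another transcript, non-overlapping genes, a replicate block and leaving out each library. Background subtraction was a further alternative, for occupied genes only.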

Additional observations from a re-analysis of the deposited data

How the results depend on the processing

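The 2 calls among chromosome 4 genes became 4 with library size scaling, 8 with TMM factors on early zygotic genes, 1 with DESeq2, 3 (2 lower and fd102C higher) at a mean of at least 50 reads, where the median of the 79 was 0.05, and from 0 to 51 when single libraries were left out (51 without DomKD replicate 1, 12 without DomKD replicate 2, 0 without Ctrl replicate 1 and 0 without Ctrl replicate 2, in fits where the lone library is assumed to vary like the other group). Over all genes 2497 calls became 1155 with DESeq2, 1175 among genes that overlap no other gene, and from 137 to 8825 when single libraries were left out (8825, 4919, 270 and 137 in the same order). The fit on genes that overlap no other gene tested 8580 genes in place of 16513. It held 48 of the 79 chromosome 4 genes and called 2 of these. The split of lower and higher calls was 2091 and 406 with TMM and 2474 and 145 with library size scaling. It was 2798 and 6 with early zygotic factors, which moved the median of all genes to -0.19, against 0.07 with TMM. All fold changes are relative to the choice of factors. Log2 fold changes of ATPsynbeta and pan reversed to -0.31 and -0.23 without DomKD replicate 1 (ranges over left-out libraries -0.31 to 0.36 for ATPsynbeta and -0.23 to 0.59 for pan), and the cause was not tested. Other named genes that did not pass in these fits also changed sign: ci (-0.09) and RpS3A (-0.05) without DomKD replicate 1, and PlexA (0.13), myo (0.16), CG11076 (0.08), Rad23 (0.05), gw (0.02) and PMCA (0.00445) without DomKD replicate 2. ATPsynbeta was -0.02 without Ctrl replicate 1 and myo 0.02 at a mean of at least 50 reads. With early zygotic factors ATPsynbeta (-0.26), RpS3A (-0.04) and pan (-0.10) were below 0.

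The replicate numbers of the libraries are not said to mark a shared day. Deviations of DomKD replicate 1 and Ctrl replicate 1 from their group means correlated at -0.144 over all genes. With the replicate number as a block, 2 chromosome 4 genes and 1858 genes were called, and the block changed no call of a named gene. The crossed pairing, added after seeing the data, called 5 and 3412.

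The difference of chromosome 4 from the autosomal median of the same density bins (-0.07 over all 79 genes) ran from -0.0929 to -0.00527 when single libraries were left out, and was 0.16 over occupied genes, 0.25 over occupied genes after background subtraction, 0.0304 within density and GC bins and -0.12 within density and span bins. Differences of this size lie within what the choice of library, density class and comparison genes moves. Background subtraction also moved single fold changes, with no test run on them. The median log2 fold change of occupied chromosome 4 genes was -0.59 after it, against -0.29 before. For occupied autosomal genes it was -0.76, against -0.41. Hcf went from -0.29 to -0.77, Eph from -0.35 to -0.79 and Zyx from -0.23 to -0.59. The densest genes changed little, ci from 0.48 to 0.49 and RpS3A from 0.28 to 0.26. With 2 libraries a group, a log2 fold change had an SE near 0.2 at most named genes.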
